A study of Homo sapiens with 4 samples.

Results

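Cyclic nucleotide phosphodiesterases and nucleotide cyclases were examined in a pooled CRISPR-Cas9 knockout screen of metabolic genes. The cells were HCT116, a long-established line from a human colon carcinoma. The members were all sgRNAs whose gene symbol begins with PDE or ADCY and a digit, or with GUCY, or is NPR1 or NPR2. This rule took 172 of the 7142 sgRNAs in the count table and 43 of the 1773 genes with 4 sgRNAs each, and it used no measured value. An sgRNA directs Cas9 to cut its gene, so its share of the sequenced counts follows the share of the surviving cells that carry it. Cells that carried the library had been selected with puromycin at 0.8 µg/mL and were then kept for 7 days with PBS or with 10 µM oxaliplatin, a platinum compound used against colorectal cancer that forms DNA crosslinks. PBS gave 1 library and oxaliplatin gave 3, and no source used here says whether the 3 came from separately infected cultures. The comparison asked which knockouts became scarcer or more abundant under the drug. All values come from 1 cell line, and fold changes run from the library labelled PBS to oxaliplatin. Every direction rests on these labels, and the signs in the study's own lists of this screen run the other way. Which sign is right could not be settled from the sources used here, and exchanged labels would turn every direction given. With 1 library against 3, an exact permutation test of a single value cannot go below p = 0.25, so tests were taken from fits across the whole table.

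Adenylate cyclases make cyclic AMP (cAMP) from ATP, and guanylate cyclases make cyclic GMP (cGMP) from GTP. Both second messengers act through protein kinases and ion channels, and phosphodiesterases end the signal by opening the cyclic ring. The phosphodiesterase families differ in substrate, and some take cAMP alone, some cGMP alone and some both. In the intestine the receptor cyclase GUCY2C binds guanylin and uroguanylin and raises cGMP in the epithelium, where cGMP controls fluid secretion.

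The 43 genes were divided by textbook role into 8 classes. PDE4A to PDE4D, PDE7A, PDE7B, PDE8A and PDE8B are cAMP phosphodiesterases, and PDE5A, PDE6A, PDE6B, PDE6C and PDE9A are cGMP phosphodiesterases. PDE1A to PDE1C, PDE2A, PDE3A, PDE3B, PDE10A and PDE11A hydrolyse both. PDE6D, PDE6G and PDE6H carry the PDE6 name but are not catalytic: PDE6D is a chaperone of prenylated proteins, and PDE6G and PDE6H are inhibitory subunits of the photoreceptor enzyme. PDE12 bears the name but degrades the oligoadenylates of the interferon response and poly(A) tails in mitochondria. The other classes were 10 adenylate cyclases, the 3 subunits of the soluble guanylate cyclase that senses nitric oxide, and 5 receptor guanylate cyclases. GUCY1A3 and GUCY1B3 are older symbols for GUCY1A1 and GUCY1B1, and the other 41 symbols are current.

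The library labelled PBS stood apart from the others. It held 8934799 counts and lacked 31 of the 172 member sgRNAs (18.0%, 95% exact binomial interval 12.6 to 24.6), while 1354 of all 7142 sgRNAs were at 0 there (19.0%). Of the member sgRNAs, 2 were at 0 in oxaliplatin replicate 1, 1 in replicate 2 and 0 of 172 in replicate 3. The interval for replicate 3 reaches up to 2.12%. The oxaliplatin libraries held 27563013, 10494731 and 11146921 counts. Replicate 1 also stood apart: across the 172 sgRNAs, log-scale correlations were 0.597 and 0.607 with replicates 2 and 3, against 0.954 between those replicates. All libraries count the same sgRNAs, so these correlations are descriptions. Results are therefore given with and without replicate 1, and the part of the sgRNAs lost from the library labelled PBS in the differences was not tested.

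Member sgRNAs made up 2.64% of the library labelled PBS and 3.12%, 2.57% and 2.51% of oxaliplatin replicates 1, 2 and 3. The higher share in replicate 1 rested on 1 sgRNA of PDE6B, a catalytic subunit of the rod phosphodiesterase. That sgRNA (sgRNA_2441) had 7158 counts in the library labelled PBS and 263024, 8531 and 7232 in oxaliplatin replicates 1, 2 and 3. It was the 5th most abundant sgRNA of replicate 1, at 0.954% of that library. Without it the other members held 2.56% in the library labelled PBS and 2.17%, 2.49% and 2.44% in the oxaliplatin libraries.

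The fold change of a gene was the median over its 4 sgRNAs of log2 of scaled counts plus a pseudocount of 1, and its value is given as the mean over the 3 oxaliplatin libraries with the SD between them. An sgRNA at 0 both with PBS and in an oxaliplatin library was left out of the median for that library. Among members this held for GUCY2C sgRNA_1565 in replicate 1 and for PDE7A sgRNA_2426 in replicates 1 and 2. The median of all 1773 genes lay at 0.20 on this scale, and changes are read relative to it. By this measure 13 of 43 member genes were above the median of all genes in 3 of 3 libraries (30.2%), where 37.9% of all genes were. Below it in 3 of 3 libraries were 16 members (37.2%), against 36.8% of all genes. The median of the 43 gene values was -0.32. Across the members the values ran from -2.70 for PDE5A to 4.25 for PDE12.

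Among the enzymes that hydrolyse cGMP, PDE5A, the target of sildenafil, had the lowest gene value of all members at -2.70 ± 0.95 (SD, n = 3). Its value was the 24th lowest among the 1773 genes, and all 4 of its sgRNAs were below the median of all sgRNAs in 3 of 3 libraries. It was the 1 member gene with this property (2.33% of members, against 1.97% of all genes). The median of all sgRNAs lay at 0.07, 0.01 and 0.0 in the 3 libraries. Over sgRNAs with at least 100 counts with PBS, the medians were lower, at -1.43, -0.74 and -0.66. Against these, sgRNA_3325 of PDE5A was not below in replicate 1, at -0.64. The sgRNA_3325 of PDE5A had 1153 counts in the library labelled PBS and 1224, 35 and 367 in oxaliplatin replicates 1, 2 and 3. For sgRNA_3326 the counts were 72 in the library labelled PBS and 3, 1 and 19 under oxaliplatin, and for sgRNA_3327 they were 2845 and then 295, 768 and 1238. The last, sgRNA_3328, went from 1965 to 1866, 1265 and 1177. Raw counts under oxaliplatin were below those of the library labelled PBS in every case but sgRNA_3325 in replicate 1, a library with more than 3 times the total count.

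Summed over its sgRNAs, PDE5A had 6035 counts in the library labelled PBS and 3388, 2069 and 2801 in oxaliplatin replicates 1, 2 and 3. In edgeR's quasi-likelihood test on such sums, no member gene of the 43 passed an adjusted threshold of 0.05 upwards (0) or downwards (0), and neither did any of all 1823 entries (0%). Without adjustment 0 members passed upwards, against 4.66% of all entries, and 1 downwards, against 1.81%. That gene was PDE5A, with a log2 fold change of -1.53 (unadjusted p = 0.0258 and adjusted p = 0.697 in edgeR's fit across all entries). DESeq2 called 0 members higher, against 6.75% of all entries, and PDE5A lower (log2 fold change -1.56, adjusted p = 0.000655), against 2.03%. Without replicate 1 edgeR gave PDE5A the same fold change of -1.53 with an adjusted p of 5.87e-06, in a fit that called 18.2% of all entries lower. When only well-counted sgRNAs entered (at least 100 counts with PBS), the gene value relative to all genes went from -2.90 to -0.57. This leaves out sgRNA_3326, and it also lowers the reference, as the median of all well-counted sgRNAs was -0.96.

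The other cGMP phosphodiesterases spread widely. PDE6A, the partner of PDE6B in rods, lay at -1.37 ± 0.99, PDE6C, the cone enzyme, at -0.57 ± 1.15, and PDE9A, the cGMP enzyme of highest affinity, at -0.45 ± 0.58. PDE6B was the highest of the class at 3.74 ± 1.82, with 5.83, 2.55 and 2.83 in the 3 libraries. For PDE6B, sgRNA_2442 and sgRNA_2444 were at 0 in the library labelled PBS, with 1619, 700 and 1176 and with 182, 39 and 83 counts under oxaliplatin. Its sgRNA_2443 had 4081 counts with PBS and 2497, 4177 and 3669 with the drug. In replicates 2 and 3 only the sgRNAs of PDE6B that were absent with PBS stood high. Gene values of members with such sgRNAs depend on the pseudocount and are no bounds. The class median was -0.57, with library medians of 0.14, -1.15 and -0.51. These lay at -0.77 relative to all genes and at -1.07 without replicate 1.

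The 8 cAMP phosphodiesterases had the opposite sign, with a class median of 1.24 and library medians of 0.43, 0.74 and 1.82. They also had the largest share of sgRNAs nearly absent from the library labelled PBS among the classes of more than 1 gene, 11 of 32 with under 3 counts (34.4%), against 27.1% over all genes. PDE7B was highest at 3.43 ± 0.57, followed by PDE4A at 2.93 ± 0.48, PDE8A at 2.57 ± 1.05 and PDE8B at 2.20 ± 1.51. Each of these genes had 2 sgRNAs with under 3 counts in the library labelled PBS. The remaining members with at most 1 such sgRNA were PDE4D at 0.29 ± 0.93, PDE4B at -0.33 ± 1.32, PDE7A at -1.39 ± 1.48 and PDE4C at -1.57 ± 1.08. PDE7A was at -2.79, -1.54 and 0.17 in the 3 libraries, with sgRNA_2426 left out of replicates 1 and 2 only. On well-counted sgRNAs alone, the class median relative to all genes went from 1.04 to -0.05.

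PDE7B held sgRNAs absent with PBS and 1 that was high in replicate 1 alone. Its sgRNA_4370 was at 0 with PBS and had 1401, 958 and 1486 counts under oxaliplatin, and its sgRNA_4369 had 0 with PBS and then 5, 99 and 96. Its sgRNA_4372 had 460 counts with PBS and 42994, 472 and 477 with oxaliplatin, so that replicate 1 was 56.4-fold higher and replicates 2 and 3 stood at 0.822 and 0.732 of the PBS level after scaling. Its sgRNA_4371 had 371 counts with PBS and 1557, 481 and 310 under oxaliplatin. In replicates 2 and 3 the high sgRNAs of PDE7B were those at 0 with PBS.

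PDE4C and PDE4D belong to the family inhibited by rolipram and roflumilast. For PDE4C, sgRNA_2397 went from 6139 counts to 1234, 3339 and 4410, sgRNA_2398 from 696 to 110, 270 and 471, and sgRNA_2399 from 4779 to 1303, 3755 and 3548. The remaining sgRNA_2400 went the other way, from 2633 to 9488, 13301 and 9950 counts, which is 2.18, 4.05 and 2.67 times the PBS level after scaling. PDE4C thus had 3 sgRNAs below the median of all sgRNAs in every library and 1 above it. At least 3 were below it in 14.5% of all genes. Against the median of all well-counted sgRNAs, sgRNA_2399 was not below in replicate 2, at -0.67 against -0.74. Relative to all genes PDE4C lay at -1.77, at -1.18 without replicate 1 and at -0.57 when all genes were read from well-counted sgRNAs. PDE4D was as divided: sgRNA_2401 rose from 0 to 1139, 949 and 663 counts, while sgRNA_2403 had 1770 with PBS and 170, 437 and 586 with oxaliplatin. Its sgRNA_2402 (354 with PBS, then 28, 919 and 877) differed in direction between libraries, and sgRNA_2404 (199, then 1927, 311 and 602) was higher in each. The range between the sgRNAs of PDE4D, in log2 fold change, was 12.41.

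The dual phosphodiesterases had a class median of -0.26, with -0.25, 0.25 and 0.06 in the 3 libraries, at -0.47 relative to all genes and -0.11 without replicate 1. PDE10A, best known from striatal neurons, was highest at 2.33 ± 1.38, with 0.74, 3.09 and 3.16 in the 3 libraries. Its sgRNA_3897 had 0 counts with PBS and 3, 117 and 122 under oxaliplatin, and sgRNA_3898 had 1 with PBS and 2408, 405 and 634. Its well-counted sgRNAs were lower under the drug, with sgRNA_3899 at 0.825, 0.681 and 0.772 of the PBS level and sgRNA_3900 going from 1012 to 252, 288 and 487 counts. On these sgRNAs alone PDE10A lay at -0.27 relative to all genes, against 2.13 with all 4.

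PDE3A, a cAMP enzyme that cGMP inhibits, was the lowest dual member at -1.15 ± 0.31, with -1.10, -1.49 and -0.87. Its sgRNA_2384 went from 3091 counts to 47, 647 and 1027, and its sgRNA_2381 from 1511 to 187, 310 and 1012. Its most abundant sgRNA_2382 had 12204 with PBS and 58339, 11559 and 10929 with oxaliplatin, and sgRNA_2383 had 0 and then 28, 145 and 351. The calmodulin-stimulated PDE1A, PDE1B and PDE1C lay at -1.05 ± 2.03, 0.37 ± 0.41 and 1.69 ± 1.69. PDE2A, which cGMP stimulates, was at -3.81 in replicate 1 but at 1.19 and 0.79 in replicates 2 and 3. PDE11A lay at -0.32 ± 0.35 and PDE3B at -0.21 ± 0.61.

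The non-catalytic members PDE6D and PDE6G were low at -1.62 ± 1.21 and -1.49 ± 0.69, and PDE6H was at 0.15 ± 0.73. PDE6D had no sgRNA under 100 counts with PBS, and its sgRNA_2415 went from 456 to 19, 131 and 286 counts. Its sgRNA_2413 (365, then 334, 240 and 236) and sgRNA_2414 (522, then 148, 379 and 401) were lower in raw counts in each library, and sgRNA_2416 (532, then 77, 631 and 1118) was not. For PDE6H, sgRNA_2421 had 1277 counts with PBS and 525, 3386 and 3887 with oxaliplatin, sgRNA_2422 had 0 and 20, 81 and 163, sgRNA_2423 had 1336 and 2440, 1623 and 2066, and sgRNA_2424 had 1144 and 662, 1071 and 1154. The sgRNAs of PDE6H did not share a direction.

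PDE12 had the highest gene value of the members at 4.25 ± 0.19, with 4.32, 4.39 and 4.04. Its sgRNA_6641 had 0 counts with PBS and 359, 774 and 722 with oxaliplatin, and its sgRNA_6644 had 0 and 1563, 220 and 212. Its other sgRNAs were abundant: sgRNA_6642 had 3700 with PBS and 8496, 5465 and 5859 with the drug, and sgRNA_6643 had 979 and 356, 2696 and 2079. The small SD covers the oxaliplatin libraries only and holds nothing of the error of the PBS library. Set at a floor of 3 counts in the library labelled PBS, the gene value was 3.32. From its well-counted sgRNAs PDE12 lay at 1.07 relative to all genes, against 4.04 with all 4.

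The 10 adenylate cyclases had a class median of 0.53, with 0.04, 0.59 and 0.61 in the 3 libraries, at 0.32 relative to all genes. Of these genes 5 lay above the median of all genes in 3 of 3 libraries and 4 below it. ADCY3, a calmodulin-stimulated form known from olfactory neurons and cilia, was highest at 3.24 ± 1.09. Its sgRNA_114 had 0 counts with PBS and 11, 2024 and 1230 under oxaliplatin, sgRNA_116 had 0 and 109, 101 and 103, sgRNA_113 had 486 and 106, 1796 and 1305, and sgRNA_115 had 1161 and 3116, 1173 and 1567. ADCY10, the bicarbonate-sensing soluble cyclase, was at 1.82 ± 0.24. Its sgRNAs divided: sgRNA_5122 went from 0 to 1129, 321 and 546 counts and sgRNA_5123 from 17 to 749, 371 and 676, while sgRNA_5121 went from 190 to 134, 26 and 152 and sgRNA_5124 from 1601 to 373, 1169 and 1550. Without the sparse pair ADCY10 lay at -0.56 relative to all genes, against 1.62 with all 4.

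ADCY6, a form inhibited by calcium, was lowest of the cyclases at -1.95 ± 1.48, with -3.66, -1.05 and -1.15 in the 3 libraries. Its sgRNAs all had at least 970 counts with PBS. The sgRNA_122 went from 970 counts to 80, 207 and 310, sgRNA_123 from 1251 to 34, 484 and 693, and sgRNA_121 from 1698 to 346, 1595 and 1250. The sgRNA_124 went from 1478 to 5999, 3011 and 2927. Thus 3 sgRNAs of ADCY6 were below the median of all sgRNAs in every library and 1 above it. At least 3 were below it in 14.5% of all genes. Against the median of all well-counted sgRNAs, sgRNA_121 of ADCY6 was not below in replicate 2, at -0.41 against -0.74. Without replicate 1 the gene lay at -1.34 relative to all genes, against -2.16 with it, and on well-counted sgRNAs at -0.96.

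The remaining adenylate cyclases were ADCY4 at -1.71 ± 0.22, ADCY1 at -1.27 ± 1.57, ADCY8 at -0.70 ± 0.60, ADCY7 at 0.12 ± 1.25, ADCY2 at 0.93 ± 0.42, ADCY9 at 0.96 ± 0.43 and ADCY5 at 1.02 ± 0.71. ADCY1 and ADCY8 respond to calcium and calmodulin, ADCY2, ADCY4 and ADCY7 to G protein βγ subunits, and ADCY9 is the form that forskolin hardly activates. Neighbours in this order differed by less than the larger of their SDs.

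Among the guanylate cyclases, GUCY2C was lowest at -2.12 ± 2.53, the 66th lowest of all genes. The libraries differed: its value was -5.05 in replicate 1 but -0.65 and -0.68 in replicates 2 and 3. These medians were not over the same sgRNAs. Replicate 1 left out sgRNA_1565, at 0 in both libraries compared, while it entered replicates 2 and 3 at 4.31 and 3.58. Its sgRNA_1567 had 232 counts with PBS and 3, 38 and 148 under oxaliplatin, sgRNA_1568 had 723 and 35, 371 and 353, and sgRNA_1566 had 435 and 203, 538 and 530. Its sgRNA_1565 was at 0 with PBS and had 0, 21 and 13 counts with the drug. Relative to all genes GUCY2C lay at -2.33, and at -0.90 without replicate 1. GUCY2C thus had 3 sgRNAs below the median of all sgRNAs in 3 of 3 libraries, where 14.5% of all genes had at least 3. For sgRNA_1566 this was narrow in replicate 2, at -0.01 against a median of 0.01. Against the median of all well-counted sgRNAs, GUCY2C had sgRNA_1567 and sgRNA_1568 below in every library, but not sgRNA_1566. On counts summed over its sgRNAs the difference did not pass edgeR's test with all libraries (log2 fold change -1.15, adjusted p = 0.822) or without replicate 1 (-0.68, adjusted p = 0.215).

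GUCY2D, the retinal receptor cyclase of photoreceptors, was the highest guanylate cyclase at 3.77 ± 0.22. Its sgRNA_1594 had 0 counts with PBS and 55, 564 and 694 with oxaliplatin, and its sgRNA_1595 had 2 and then 698, 1724 and 1378. Its sgRNA_1593 (1470, then 7174, 413 and 401) and sgRNA_1596 (761, then 19, 412 and 743) were well counted, and on them alone GUCY2D lay at -0.78 relative to all genes, against 3.57 with all 4. The natriuretic peptide receptors NPR1 and NPR2 lay at 0.34 ± 0.42 and -1.09 ± 2.10, and the other retinal cyclase GUCY2F at -0.47 ± 0.81. NPR2 was at -3.51 in replicate 1 and at 0.09 and 0.16 in replicates 2 and 3.

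The means of the soluble cyclase subunits lay close together, GUCY1A3 at -0.31 ± 1.06, GUCY1A2 at -0.52 ± 1.14 and GUCY1B3 at -0.71 ± 0.16. Single libraries differed. In replicates 1, 2 and 3 GUCY1A3 was at 0.90, -1.06 and -0.76 and GUCY1A2 at 0.70, -1.57 and -0.71. GUCY1B3 was at -0.78, -0.53 and -0.82. The β subunit GUCY1B3 pairs with either α subunit in the active enzyme. Its sgRNAs had the widest range of all members, 12.41 in log2 fold change. The sgRNA_1562 went from 6 counts to 17090, 6334 and 5229, and sgRNA_1563 from 8178 to 2222, 1666 and 1626. The other 2 were sgRNA_1561, with 2090 counts and then 95, 970 and 1247, and sgRNA_1564, with 624 and then 2143, 1002 and 672. For GUCY1A3, sgRNA_1557 went from 799 to 32, 476 and 644, sgRNA_1558 from 2094 to 17123, 1254 and 1808, sgRNA_1559 from 0 to 500, 638 and 753 and sgRNA_1560 from 666 to 778, 167 and 261. GUCY1A3 and GUCY1B3 each had sgRNAs above and below the median of all sgRNAs in 3 of 3 libraries, as had 66.5% of all genes. Whether the subunits moved together cannot be read from such sgRNAs.

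In edgeR's quasi-likelihood test of single sgRNAs, 15 of 171 tested members were called higher under oxaliplatin (8.77%), against 8.37% of all sgRNAs tested. The sgRNA_2426 of PDE7A, with 0, 0, 0 and 6 counts, was too sparse to be tested. None was called lower (0 of 171, background 0%). Without adjustment edgeR gave 1 member (GUCY1A2 sgRNA_1555), against 1.45% of all sgRNAs, and DESeq2 with adjustment gave 0 members, against 0.408%. DESeq2 called 43 members higher (25.1%), against 28.5% of all. The 15 lay on 15 genes: ADCY1, ADCY2, ADCY5, ADCY7, ADCY9, ADCY10, GUCY1A3, GUCY2D, PDE4B, PDE4D, PDE6A, PDE6B, PDE7B, PDE9A and PDE12. Of their counts in the library labelled PBS, 10 were 0, 3 were 1 to 3 and 2 were 4. Over all 595 sgRNAs called higher, 261 were at 0 there, 264 at 1 to 3 and 70 over 3. Adjusted p-values of the 15 by edgeR ran from 0.0416 to 0.0490. All 15 were also called by DESeq2 and by edgeR without replicate 1, as were all 595 called over the whole table. In the same fit restricted to sgRNAs whose PBS count was 3 or more, 0 of 133 members were called in either direction, as were 0% of all. Without adjustment 5 were higher (3.76%), against 5.64% of all, and 0 lower, against 0.882%. Without replicate 3 edgeR called 10 members higher (5.88%), against 4.23% of all.

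Among those 15, PDE7B sgRNA_4370 was at least 282-fold, 256-fold and 350-fold higher than a floor of 3 counts in the library labelled PBS (edgeR adjusted p = 0.0416). PDE6B sgRNA_2442 was at least 326-fold, 187-fold and 277-fold higher. ADCY5 sgRNA_118, with 0 counts and then 1145, 1343 and 816, was at least 230.5-fold, 359-fold and 192-fold higher. PDE4D sgRNA_2401 was at least 229-fold, 253.5-fold and 156-fold higher. These are bounds from counting error alone.

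In replicate 1 the lowest bound among the called sgRNAs at 0 belonged to ADCY9 sgRNA_133, with 159, 542 and 365 counts and at least 32.0-fold, 145-fold and 85.9-fold higher. PDE4B sgRNA_2393 had 286, 410 and 522 counts, at least 57.6-fold, 109.5-fold and 123-fold higher. ADCY1 sgRNA_106 had 760, 439 and 1017 counts. ADCY10 sgRNA_5122, GUCY1A3 sgRNA_1559 and PDE12 sgRNA_6641, whose counts are given above, complete the 10 that were at 0 with PBS.

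For PDE6A sgRNA_2405 the counts were 3 with PBS and 3279, 2979 and 4279 with oxaliplatin, and its ratios were 660, with a 95% counting interval of 226 to 3202, then 796 and 1007. PDE9A sgRNA_2436 went from 2 counts to 2275, 1579 and 1785, with ratios of 687 (190 to 5675), 633 and 630. GUCY2D sgRNA_1595 had ratios of 211 (58.1 to 1744), 691 and 486. ADCY2 sgRNA_112 went from 4 counts to 3101, 1899 and 2085 and ADCY7 sgRNA_128 from 4 to 1896, 2191 and 2422. In each of the 15 the oxaliplatin libraries all lay above the library labelled PBS. This follows almost from the selection, as they were called higher from at most 4 counts with PBS, and it adds no support. No other sgRNA of these 15 genes was called in that test.

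The number of sgRNAs sparse in the library labelled PBS went along with the gene value. The 14 member genes with no sgRNA under 3 counts there had a median gene value of -0.71, from -2.70 to 0.93. The 19 with 1 such sgRNA had a median of -0.45, and the 10 with 2 had a median of 3.09, from 1.69 to 4.25. The 10 were PDE12, PDE4A, PDE7B, PDE8A, PDE8B, PDE6B, PDE1C, PDE10A, ADCY3 and GUCY2D. Over all genes the medians were -0.78, -0.12 and 2.86 for 0, 1 and 2 such sgRNAs. The part of these sparse sgRNAs in each gene value was not tested beyond the values from well-counted sgRNAs given here.

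Of the 172 member sgRNAs, 125 were well counted. Over sgRNAs of any count, 56 members (32.6%) were above the median of all sgRNAs in 3 of 3 libraries, against 36.8% of all, and 69 (40.1%) below it, against 36.6%. The median log2 fold change of all 4859 such sgRNAs was -1.43, -0.74 and -0.66 in the 3 libraries. Above it in 3 of 3 libraries were 31 member sgRNAs (24.8%), against 28.6% of all well-counted sgRNAs. Below it in 3 of 3 were 30 (24%), against 28.7%. Class medians over well-counted sgRNAs, relative to their overall median, were 0.27 for the cAMP, -0.58 for the cGMP and 0.24 for the dual phosphodiesterases. They were 0.04 for the adenylate cyclases, -0.59 for the soluble and -0.07 for the receptor guanylate cyclases.

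The lowest well-counted sgRNAs on 1 side of the well-counted median in all libraries were PDE6C sgRNA_2409 at -7.82, -2.68 and -2.90, PDE6G sgRNA_2420 at -6.88, -3.47 and -1.46 and PDE3A sgRNA_2384 at -6.73, -2.57 and -2.09 in log2 fold change. GUCY2C sgRNA_1567 at -6.50, -2.89 and -1.14 and GUCY1A2 sgRNA_1555 at -4.71, -3.14 and -2.10 followed. PDE6C sgRNA_2409 had 853 counts with PBS and 5, 165 and 161 with oxaliplatin. PDE6G sgRNA_2420 had 942 and 12, 105 and 484, and GUCY1A2 sgRNA_1555 had 1679 and 105, 237 and 555. In all 5 replicate 1 was the lowest library. None passed edgeR's test with all libraries, where adjusted p-values were 0.183 to 0.573. Without replicate 1 PDE6C sgRNA_2409 (adjusted p = 0.000125), PDE6G sgRNA_2420 (0.00266), PDE3A sgRNA_2384 (7.52e-05) and GUCY1A2 sgRNA_1555 (2.67e-05) passed it, and GUCY2C sgRNA_1567 (0.148) did not. All 5 were picked as the lowest from the same counts, so passing follows in part from the selection and adds no support. That fit called 15.5% of all sgRNAs lower.

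The highest by the same rule were ADCY9 sgRNA_134 at 4.05, 3.11 and 2.33, ADCY2 sgRNA_110 at 4.45, 1.77 and 1.06, NPR1 sgRNA_2277 at 4.78, 0.95 and 0.77, PDE7A sgRNA_2425 at 2.87, 1.88 and 1.35 and PDE7B sgRNA_4372 at 5.82, -0.28 and -0.45. ADCY9 sgRNA_134 had 656 counts with PBS and 18032, 7060 and 4677 with oxaliplatin. ADCY2 sgRNA_110 had 873 and 31630, 3716 and 2578, NPR1 sgRNA_2277 had 544 and 24741, 1311 and 1318, and PDE7A sgRNA_2425 had 1514 and 18354, 6944 and 5455. Here replicate 1 was the highest library in each case. None passed edgeR's test with all libraries (adjusted p from 0.293 to 0.506). Without replicate 1 the first 4 passed it, ADCY9 sgRNA_134 with an adjusted p of 2.07e-07, and PDE7B sgRNA_4372 did not (0.904). These sgRNAs were picked as the highest from the same counts, so passing follows in part from the selection and adds no support. That fit called 38.2% of all sgRNAs higher.

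Replicate 1 thus lay at the extremes in both directions. Among the 125 well-counted members, 31 (24.8%) were more than 3 log2 units lower in replicate 1 than the mean of replicates 2 and 3, and 14 (11.2%) more than 3 higher. Over all well-counted sgRNAs the shares were 21.2% and 6.15%. The median absolute difference was 2.00 between replicate 1 and the others and 0.42 between replicates 2 and 3.

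Without replicate 1, edgeR called 61 of 171 member sgRNAs higher (35.7%), against 38.2% of all, and 25 lower (14.6%), against 15.5%. Of the 61, 36 had under 3 counts in the library labelled PBS, and 20 had at least 100. For all 2712 sgRNAs called higher these numbers were 1784 and 640. The 25 lower sgRNAs all had at least 318 counts with PBS and lay on 19 genes, 6 of which (31.6%) held 2 each. Over all 1101 sgRNAs called lower, 1098 had at least 100 counts with PBS, and 26.1% of genes held at least 2. The 6 were ADCY4, ADCY6, PDE3A, PDE5A, PDE6C and PDE6G. For ADCY4, sgRNA_6589 had 318 counts with PBS and 7587, 33 and 64 with oxaliplatin, and sgRNA_6592 had 2609 and 2143, 344 and 636, so that replicate 1 went against the others in the first. This fit takes the spread from replicates 2 and 3, and it takes the single PBS library to vary as they do.

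On summed counts without replicate 1, edgeR called 9 member genes higher (20.9%, background 22.9%) and 5 lower (11.6%, background 18.2%). Higher were PDE8A (log2 fold change 2.48, adjusted p = 5.16e-05), PDE7A (1.42), ADCY3 (1.30), PDE7B (1.18), PDE2A (1.04), ADCY2 (0.97), PDE4B (0.79), ADCY7 (0.76) and PDE12 (0.74). Lower were PDE5A (-1.53), PDE6C (-1.43), PDE6G (-1.06), PDE4A (-0.81) and PDE1C (-0.71). For 3 of these genes the sum and the median over sgRNAs had opposite signs. PDE7A was called higher on its sum, most of which was sgRNA_2425, while its median value relative to all genes, also without replicate 1, was -0.93. PDE4A and PDE1C were called lower on their sums while these values were 2.97 and 2.42. In both the most abundant sgRNA was lower and the sparse ones higher.

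The sgRNAs of 1 gene seldom shared a direction. In 31 of the 43 member genes (72.1%) at least 1 sgRNA was above and at least 1 below the median of all sgRNAs in 3 of 3 libraries, against 66.5% of all genes. At least 3 of 4 sgRNAs were below it in 6 member genes (14.0%), against 14.5% of all genes, and at least 3 above it in 2 (4.65%), against 14.8%. The 6 were PDE5A, PDE6A, PDE6D, PDE4C, ADCY6 and GUCY2C, and the 2 were PDE12 and PDE8B. The median range between the sgRNAs of a member gene was 9.11 in log2 fold change, against 8.69 over all genes.

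Compared across roles, the class medians relative to all genes were 1.04 for cAMP, -0.77 for cGMP and -0.47 for dual phosphodiesterases, 0.32 for adenylate cyclases, and -0.73 and -0.68 for soluble and receptor guanylate cyclases. Without replicate 1 the soluble class lay at -1.15 and the receptor class at -0.11, and without replicate 3 the receptor class lay at -1.10. Without replicate 2 the soluble class lay at -0.24, the cGMP phosphodiesterases at -0.41 and the adenylate cyclases at 0.09. On well-counted sgRNAs per gene the cAMP phosphodiesterases lay at -0.05, the cGMP enzymes at -0.57 and the dual enzymes at -0.10. By the same measure the adenylate cyclases lay at -0.09, the soluble class at -0.03 and the receptor class at -0.68. These classes overlapped in their gene values. The cAMP phosphodiesterases ran from -1.57 to 3.43, the cGMP enzymes from -2.70 to 3.74 and the dual enzymes from -1.15 to 2.33. The adenylate cyclases ran from -1.95 to 3.24, and the receptor guanylate cyclases from -2.12 to 3.77. The SD of a class median between oxaliplatin libraries was 0.73 for cAMP and 0.65 for cGMP phosphodiesterases, and 0.94 for the soluble guanylate cyclase. No test of the class differences was made, as genes of a class are not replicates of a condition.

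Enzymes next to cyclic nucleotides in metabolism were read from a list of 15 genes, none of them members. They had a median gene value of -0.55. Of these 15 genes 2 lay above the median of all genes in 3 of 3 libraries and 6 below it, against 37.9% and 36.8% of all genes. On summed counts edgeR called 0 of the 15 in either direction with all libraries, as it did 0% of all entries. Without replicate 1 it called 2 higher and 4 lower, against 22.9% and 18.2% of all entries. AK1, which converts AMP to ADP, and ENPP1, a nucleotide pyrophosphatase, were lowest at -2.58 ± 1.46 and -2.26 ± 1.08. NOS3, the endothelial nitric oxide synthase, was at 3.90 ± 0.03, and AMPD1, the muscle AMP deaminase, at 6.66 ± 0.56. Both had 2 sgRNAs at 0 with PBS, so these values depend on the pseudocount. Read with a floor of 3 counts per library they were 2.96 and 4.79. The SDs hold nothing of the error of the PBS library. NOS1 and NOS2, which also make the nitric oxide that soluble guanylate cyclase senses, lay at -0.82 ± 0.70 and -1.01 ± 0.11. The 3 nitric oxide synthases thus did not share a sign, but NOS1 and NOS2 had no sgRNA at 0 with PBS. The part of the absent sgRNAs of NOS3 in this difference was not tested.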

How the data were processed

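The authors amplified sgRNA inserts from genomic DNA and deposited read counts of 7142 sgRNAs in 4 libraries, per library and as 1 table, with equal values. MAGeCK is the tool given in the processing notes of the submitters. Its version and settings were not given in the sources used here. Sequences of sgRNAs were not used, and 0 columns belonged to other samples. Depth was 8934799 counts in the library labelled PBS and 10494731 to 27563013 under oxaliplatin. No molecular identifiers are described, so PCR copies count as separate reads. Intervals and floors therefore hold the error of counting alone.

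Oxaliplatin libraries were scaled 1 by 1 against PBS with the median ratio of MAGeCK, and log2 fold changes took a pseudocount of 1. A gene value was the median over its sgRNAs, without those at 0 in both libraries compared. A floor was 3 counts per library, and "well counted" meant 100 or more counts with PBS. Deposited counts of single sgRNAs, and their sums per gene, were tested by edgeR 4.0.16 (quasi-likelihood, TMM, filterByExpr, Benjamini-Hochberg over the whole table, threshold 0.05), with DESeq2 1.42.0 as an alternative, in R 4.3.3. The libraries are not stated to come from separate cultures, so p-values measure only the spread between them, and the fits take the single PBS library to vary like the others. Scripts ran in Python 3.11.15 (numpy 2.4.6, scipy 1.17.1, pandas 2.3.3) and were tested on simulated data.

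Members, classes and the list of 15 neighbouring genes were chosen with earlier results of these data known. Values per library were given for the highest and lowest gene of each class, every called sgRNA, the 5 lowest and 5 highest well-counted sgRNAs on 1 side of the well-counted median in 3 of 3 libraries, and GUCY2C, PDE5A, PDE4D, PDE10A and ADCY10. ADCY4 sgRNAs and the genes called without replicate 1 were named after seeing values. The alternatives varied the scaling, the pseudocount, the minimum count, the summary over sgRNAs, the tool and the libraries. Later experiments of the study were not analysed here.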

Additional observations from a re-analysis of the deposited data

How the results depend on the processing

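The 15 member sgRNAs called higher became 0 with total counts, 0 when a PBS count of 3 or more was required and 43 with DESeq2, and 10 to 61 when 1 oxaliplatin replicate was left out. With 1 replicate left out, 0 to 25 members were called lower, and on gene sums 0 to 9 were called higher and 0 to 5 lower, against 0 in each case with all libraries. DESeq2 called 1 gene sum lower. The highest numbers came without replicate 1.

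Requiring a PBS count of 100 or more turned the class median relative to all genes from 1.04 to -0.05 for cAMP phosphodiesterases and from 0.32 to -0.09 for adenylate cyclases, and ADCY10 to -0.56, GUCY2D to -0.78 and PDE10A to -0.27. It moved dual phosphodiesterases to -0.10, PDE6 non-catalytic members from -1.70 to -0.63 and PDE12 from 4.04 to 1.07. PDE12 was at 2.53 and 1.59 with pseudocounts of 10 and 50. The mean over sgRNAs gave 3.12 for PDE12, -0.76 for dual phosphodiesterases and 0.64 for adenylate cyclases. Dual phosphodiesterases ran from -0.42 to -0.11 with 1 replicate left out. Well-counted sgRNAs above the median in every library ran from 33 to 57 and below it from 35 to 49, as fewer libraries have to match. Over all alternatives, 111 of 132 values of the main results moved by less than 1 SD between libraries (counts by at most 1.5 times), as did 124 of 153 for named genes. The sign turned in 2 and 12, the latter in ADCY10, GUCY2D, PDE10A, GUCY1A3, PDE4D and PDE6H. Except where the construction shows it, the cause was not tested. The tally of unmoved values is no measure of stability. It includes counts of 0 that stayed at 0, and the SD is wide where replicate 1 differs. The soluble guanylate cyclases, at -0.03 on well-counted sgRNAs instead of -0.73, counted as unmoved with an SD of 1.0. Total counts and TMM set the median of all genes at 0.00 and 0.67. No paired analysis was possible because the library labelled PBS is single and shares no replicate number with the others. Fold changes of the 39 member sgRNAs with under 3 counts there rest on few or no PBS counts. That library held 8934799 counts, and oxaliplatin replicate 2, with 10494731, had 3 such member sgRNAs. Why they were sparse was not tested.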
